A study of Homo sapiens with 4 samples.

Results

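The integrin and laminin genes were followed in the mRNA of anaplastic thyroid cancer (ATC) cells that were sensitive or resistant to paclitaxel, a taxane that stabilizes microtubules. Members were taken by gene name alone: every integrin α chain (18 genes), every integrin β chain (8 genes) and every laminin chain (5 α, 4 β and 3 γ genes), which gave 38 of the 26485 gene names in the tables. SW1736 and 8505C are established human lines derived from ATC. SW1736 wt and 8505C wt received no paclitaxel, whereas SW1736-PTX and 8505C-PTX had been exposed for 6 months to doses from 1 nM up to 1.5 µM and were then kept in 1.5 µM. All 4 cultures grew in RPMI-1640 with serum, and each was sequenced once (single-end reads of 75 bp), so no difference could be set against the spread between cultures and no p-value was computed.

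Integrins are receptors made of 1 α and 1 β chain that span the membrane and tie the extracellular matrix, or a neighbouring cell, to the actin cytoskeleton. Laminins are trimers of 1 α, 1 β and 1 γ chain and form, with type IV collagen, nidogen and perlecan, the sheet called the basement membrane on which epithelial cells such as thyroid follicular cells rest. The α chain of the laminin carries the main site for integrins, which is read chiefly by α3β1, α6β1, α6β4 and α7β1. A laminin is named by its chains, so that laminin-511 holds α5, β1 and γ1.

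Levels are given in FPKM, the fragments aligned to a gene scaled for its length and for the depth of the library, which allows chains of different length to be set side by side as RNA levels. Differences are log2((PTX + 0.1)/(wt + 0.1)), a scale that understates the change of genes with a low FPKM. A gene was compared when it was above 0.5 FPKM in 1 or both of the libraries set against each other, and was called higher or lower when this value was beyond 1.5 or -1.5, limits taken from the study's methods. The libraries held 48.9 M reads for SW1736 wt, 57.9 M for SW1736-PTX, 43.5 M for 8505C wt and 53.6 M for 8505C-PTX, as read from the ratio of coverage to FPKM. At these depths 3 reads on the transcript of a member correspond to between 0.00453 and 0.0246 FPKM, and such limits cover counting error only.

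The library labelled SW1736-PTX was more like 8505C wt than like its own parental line. Across 14692 expressed genes, which share library and depth effects and are not replicates, Pearson's r on log2(FPKM + 0.1) was 0.767 between SW1736-PTX and SW1736 wt, 0.873 between SW1736-PTX and 8505C wt, and 0.933 between SW1736-PTX and 8505C-PTX. It was 0.877 between 8505C wt and 8505C-PTX, 0.845 between the wt lines, and 0.750 between SW1736 wt and 8505C-PTX. The thyroid transcription factor genes also set SW1736 wt apart. PAX8 had an FPKM of 38.2 in SW1736 wt and at 0.12 to 0.21 in the other libraries, and NKX2-1 was at 0 in SW1736 wt and between 30.5 and 39.0 in the others. TG and TSHR, which mark differentiated thyroid cells, were at or near 0 in all libraries. Of the epithelial markers, KRT8 and KRT18 were above 250 FPKM in each library, EPCAM was below 0.1 in each, and KRT19 had an FPKM of 266 in SW1736 wt and at most 0.53 elsewhere. Each value of SW1736-PTX is therefore given below against SW1736 wt and, where it matters, against 8505C wt. The paper states that both cell lines were checked by short tandem repeat analysis. It does not say whether this check covered the resistant cultures. Whether the resistant culture still held the parental SW1736 cells was not tested here.

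Of the 38 genes, 29 were above 0.5 FPKM in at least 1 library and 18 in all of them. The number above 0.5 FPKM came to 21 for SW1736 wt, 26 in SW1736-PTX, 23 in 8505C wt and 29 in 8505C-PTX. Over all gene names the numbers were 12579, 13430, 12393 and 13420 in the same order, so more genes passed in the PTX libraries in general. The 9 genes that never passed were ITGA8, ITGA10, ITGAD, ITGAL, ITGAM, ITGB6, ITGB7, LAMA2 and LAMB4. The highest of these values was 0.146 FPKM (LAMA2 in 8505C wt), and ITGB6 and LAMB4 were listed at 0 in all 4 libraries. At the other end, ITGB1 and ITGA3 were above 100 FPKM in each library.

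**Figure D1:**
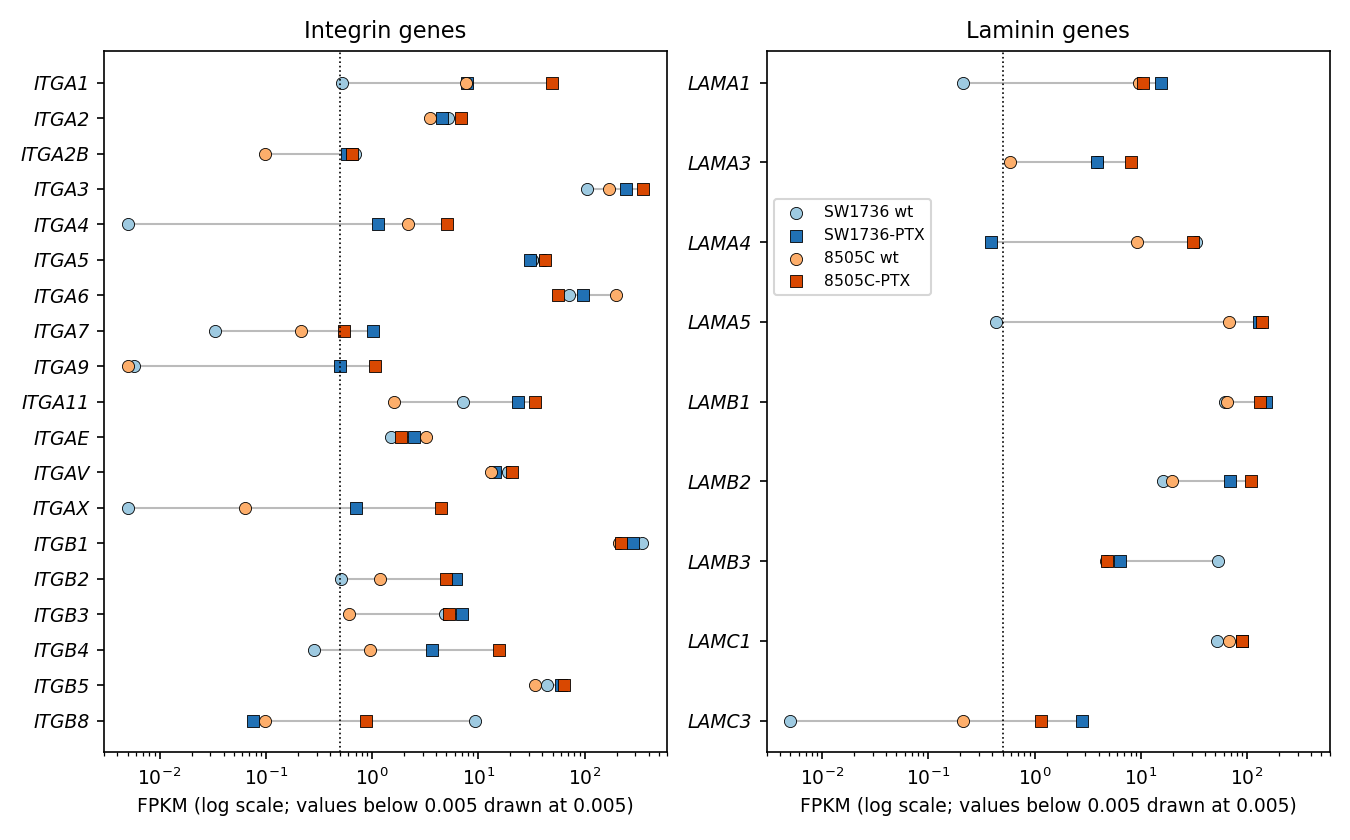
FPKM on a log scale for 28 of the integrin and laminin genes above 0.5 FPKM (dotted line) in at least 1 library, with 1 point per library and values below 0.005 drawn at 0.005. ITGB1 and ITGA3 lay above 100 FPKM in each library, whereas LAMA5, LAMA1 and ITGA1 were low in SW1736 wt alone and LAMA4 was low in SW1736-PTX alone.

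In SW1736, 28 members were compared and 11 (39.3%) were higher in SW1736-PTX, while 15.7% of all compared genes were. Another 4 (14.3%) were lower, and 10.2% of all compared genes were. In 8505C, 29 members were compared and 13 (44.8%) were higher in 8505C-PTX against 15.0% of all genes, while 1 (3.45%) was lower against 5.89%. The median log2 difference of the compared integrins was 0.59 in SW1736 and 1.20 in 8505C, that of the laminins 1.04 and 1.02, and that of all compared genes 0.01 and 0.11. A gene that passed the limit of 0.5 FPKM only in the library where it was high had to differ, so these counts describe the members and are not a test of them. With more than 0.5 FPKM required in both libraries, 3 integrin genes and 1 laminin gene were left as higher in SW1736-PTX. In 8505C-PTX, 5 integrin genes and 3 laminin genes were left as higher. The share of all genes under this stricter filter was not computed, so these counts cannot be set against it.

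Of the 28 members compared in both lines, 7 were higher in both PTX libraries (7.37% of all 13304 such genes were) and 0 were lower in both (2.41% of all). The 7 were ITGA1, ITGA11, ITGAX, ITGB2, ITGB4, LAMB2 and LAMC3. Of these, ITGAX in SW1736 (0.77), ITGB2 in 8505C (1.44) and LAMC3 in 8505C (0.82) no longer passed with a pseudocount of 1. A further 2, ITGB8 and LAMA4, were called in opposite directions (1.08% of all genes). With a pseudocount of 1, ITGB8 was at 0.78 in 8505C and no longer called, and with more than 0.5 FPKM required in both libraries neither gene was compared in SW1736.

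**Figure D2:**
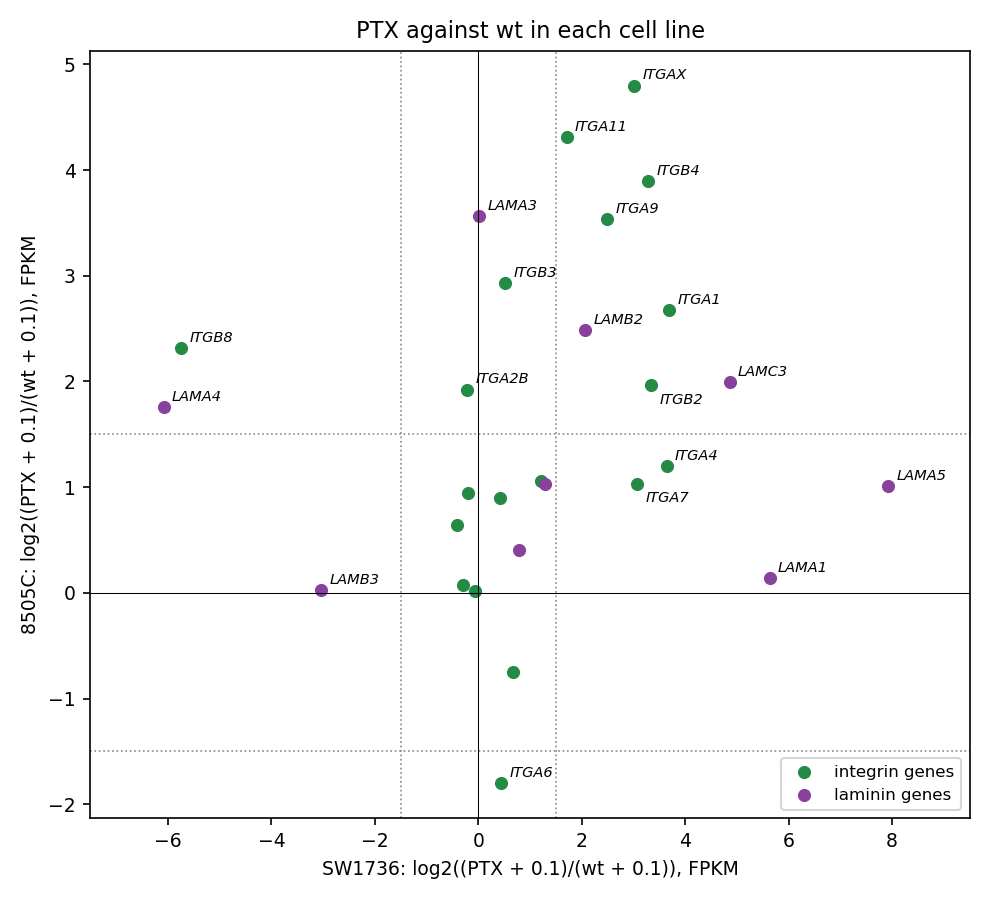
Log2 difference between PTX and wt in SW1736 (horizontal axis) and in 8505C (vertical axis) for 28 of the members above 0.5 FPKM in at least 1 library, with dotted lines at the limits of 1.5 and -1.5 and names for genes beyond a limit in either line. ITGB8 and LAMA4 lie at the upper left, with values near -6 in SW1736 and near 2 in 8505C, and ITGA9 is drawn although it stayed below 0.5 FPKM in both SW1736 libraries.

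The promoters of the member with the largest difference on the scale with the pseudocount, LAMA5, and of the collagen receptor chains that were higher in both PTX lines, ITGA1 and ITGA11, are shown for reference. Each is the 250 bases before the RefSeq start site (GRCh38.p14), written 5′ to 3′ on the strand of the gene. For LAMA5 this is chr20:62367313-62367562 on the minus strand, for ITGA1 chr5:52787666-52787915 on the plus strand, and for ITGA11 chr15:68432164-68432413 on the minus strand. The start site used for ITGA1, 52787916, lies upstream of the start of the measured ITGA1 span, 52788302. Capitals mark the SP1 box (GGGCGG) and the E-box (CACCTG), read on both strands.

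LAMA5: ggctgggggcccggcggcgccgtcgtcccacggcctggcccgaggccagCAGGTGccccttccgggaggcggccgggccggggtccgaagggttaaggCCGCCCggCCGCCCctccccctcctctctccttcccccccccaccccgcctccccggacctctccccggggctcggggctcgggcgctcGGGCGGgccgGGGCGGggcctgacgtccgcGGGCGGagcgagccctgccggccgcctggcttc
ITGA1: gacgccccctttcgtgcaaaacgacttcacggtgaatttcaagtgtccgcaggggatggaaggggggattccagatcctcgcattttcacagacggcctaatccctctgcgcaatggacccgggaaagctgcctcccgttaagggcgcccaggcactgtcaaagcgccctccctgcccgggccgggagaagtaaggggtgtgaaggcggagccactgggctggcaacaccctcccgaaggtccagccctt
ITGA11: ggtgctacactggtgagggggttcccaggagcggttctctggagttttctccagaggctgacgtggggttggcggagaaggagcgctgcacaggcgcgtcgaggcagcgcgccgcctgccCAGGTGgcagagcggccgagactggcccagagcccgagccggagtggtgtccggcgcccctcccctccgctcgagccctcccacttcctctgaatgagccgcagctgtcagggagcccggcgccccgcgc

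The LAMA5 window held 5 SP1 boxes, 1 E-box and 32 CpG dinucleotides, the ITGA1 window no match and 16 CpG, and the ITGA11 window 1 E-box and 23 CpG. The median was 10 CpG over the promoters of the members and 11 over all 35116 promoters in the table. Across the 33 promoters found for 26 members, the SP1 box was present in 17 (51.5%) and in 42.6% of all promoters, and the E-box in 8 (24.2%) and 17.5% of all. The AP-1 letters TGANTCA were in 2 (6.06%; 6.57% of all), the TEAD letters CATTCC in 4 (12.1%; 11.9%) and TATAAA in 2 (6.06%; 10.7%). These are letter matches in a window and not sites shown to be bound.

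Among the laminin α chains, LAMA5 and LAMA1 were low in SW1736 wt alone. LAMA5 (chromosome 20, 62309060 to 62367312, minus strand, hg38), the α chain of the laminins most widespread in adult epithelial basement membranes, had an FPKM of 0.430 in SW1736 wt, 128.9 in SW1736-PTX, 68.2 in 8505C wt and 137.8 in 8505C-PTX. The log2 difference was 7.93 in SW1736, the largest of any member on this scale, and 1.01 in 8505C, below the limit. As a plain ratio it was 299.9-fold, below the bound given for LAMC3. Against 8505C wt, SW1736-PTX was higher by 0.92. The antisense gene LAMA5-AS1 stayed between 0 and 0.373 FPKM.

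LAMA1, the chain of the embryonic laminin-111 (chromosome 18, 6941744 to 7117814), was also lowest in SW1736 wt. It had an FPKM of 0.212 in SW1736 wt, 15.3 in SW1736-PTX, 9.61 in 8505C wt and 10.6 in 8505C-PTX, with log2 differences of 5.63 in SW1736 and 0.14 in 8505C. Both wt lines differed by 4.96, and SW1736-PTX exceeded 8505C wt by 0.67.

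LAMA4 (chromosome 6, 112107931 to 112254715), the α chain typical of vessels and mesenchyme, went in opposite directions. It had an FPKM of 32.9 in SW1736 wt and 0.387 in SW1736-PTX, a log2 difference of -6.08, and at 9.13 in 8505C wt and 31.0 in 8505C-PTX, a log2 difference of 1.75. SW1736-PTX was thus the only library below 9 FPKM. It was the one laminin gene that stayed lower when 8505C wt served as the comparator, at -4.24. The endothelial markers KDR, PECAM1 and VWF were at or below 0.28 FPKM in each library. The fourth, CDH5, was at 0 in SW1736 wt, 0.22 in SW1736-PTX, 55.9 in 8505C wt and 4.53 in 8505C-PTX. The relation of LAMA4 to these markers was not tested.

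LAMA3, an α chain of epithelial laminins, had an FPKM of 3.85 in SW1736 wt, 3.90 in SW1736-PTX, 0.592 in 8505C wt and 8.08 in 8505C-PTX. Its log2 difference was 0.02 in SW1736 and 3.56 in 8505C. The table has 1 value for the whole gene, so the long and the short form of the α3 chain could not be told apart.

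As a share of all laminin α chain FPKM, LAMA4 made up 87.9% in SW1736 wt and 0.260% in SW1736-PTX, whereas LAMA5 made up 1.15% and 86.7%. In 8505C, LAMA5 held 77.8% in wt and 73.5% in PTX, and LAMA4 10.4% and 16.6%. The summed α chain level came to 37.4 FPKM for SW1736 wt, 148.6 in SW1736-PTX, 87.7 in 8505C wt and 187.5 in 8505C-PTX. These sums and shares were formed after the values had been seen.

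**Figure D3:**
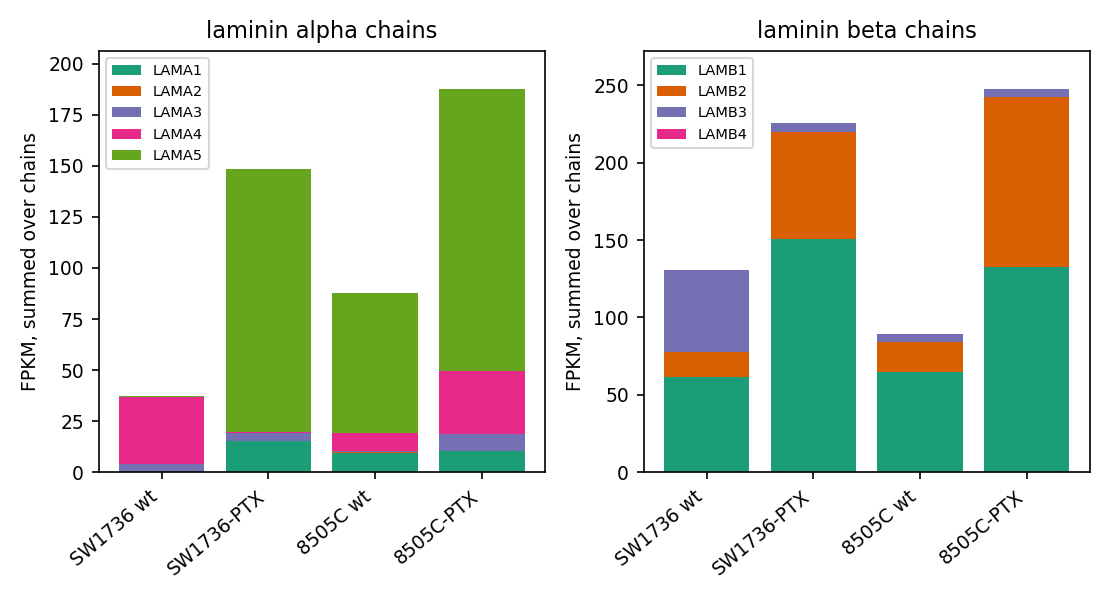
Stacked FPKM of the laminin α and β chain genes in each of the 4 libraries, from a baseline of 0. The α chain bar of SW1736 wt was 87.9% LAMA4, while LAMA5 held at least 73.5% of the α chain FPKM in each of the other libraries.

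Among the β chains, LAMB2, found in laminin-521 of the kidney filter and the neuromuscular junction, was higher in both PTX libraries. It had an FPKM of 16.3 in SW1736 wt and 68.6 in SW1736-PTX (log2 difference 2.07), and at 19.6 in 8505C wt and 109.8 in 8505C-PTX (2.48). Both PTX libraries thus lay above both wt libraries, and SW1736-PTX also exceeded 8505C wt, by 1.81. LAMB1, the partner in most laminins, was also higher in both PTX than in both wt libraries, with 61.7 and 150.8 FPKM in SW1736 and 64.8 and 132.8 in 8505C, but its log2 differences of 1.29 and 1.03 stayed within the limit. The ratio of LAMB1 to LAMB2 came to 3.79 for SW1736 wt, 2.20 in SW1736-PTX, 3.31 in 8505C wt and 1.21 in 8505C-PTX.

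LAMB3, a β chain of the laminins of hemidesmosomes and of migrating epithelial sheets, was high in SW1736 wt alone. It had an FPKM of 52.8 in SW1736 wt and 6.30 in SW1736-PTX, a log2 difference of -3.05, and at 4.74 and 4.82 in 8505C wt and PTX. Against 8505C wt, SW1736-PTX differed by 0.41.

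LAMC1, the γ chain of most laminins, differed little, with FPKM values of 52.1 in SW1736 wt, 90.3 in SW1736-PTX, 67.8 in 8505C wt and 90.1 in 8505C-PTX. LAMC3, a rarer γ chain, was listed at 0 in SW1736 wt, while SW1736-PTX had an FPKM of 2.80. Taking 3 reads on its transcript of 7455 bp as the floor, the difference was at least 341-fold. In 8505C it went from 0.211 to 1.14 FPKM, a log2 difference of 2.00, and SW1736-PTX was above 8505C wt by 3.22.

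Among the integrins, the laminin receptor chains ITGA3 and ITGA6 were the most abundant α chains in each library. ITGA3 (α3, which pairs with β1 and binds laminin-511) had an FPKM of 105.8 in SW1736 wt, 244.5 in SW1736-PTX, 171.1 in 8505C wt and 356.3 in 8505C-PTX. Both PTX libraries were above both wt libraries, by 1.21 in SW1736 and 1.06 in 8505C on the log2 scale, neither beyond the limit. ITGA6 (α6, which pairs with β1 or β4) had FPKM values of 72.2 and 97.7 in SW1736 wt and PTX, a log2 difference of 0.44. In 8505C it went from 196.7 to 56.5 FPKM, a log2 difference of -1.80, and it was the 1 integrin gene that was lower in 8505C-PTX. The ratio of ITGA3 to ITGA6 came to 1.47 for SW1736 wt, 2.50 in SW1736-PTX, 0.870 in 8505C wt and 6.31 in 8505C-PTX.

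ITGA7 (α7, a laminin receptor best known from muscle) stayed near 1 FPKM or below. It was at 0.0330 in SW1736 wt and 1.01 in SW1736-PTX, a log2 difference of 3.06, and at 0.216 and 0.548 in 8505C, where 1.03 did not pass. The SW1736 wt value stood for about 6.65 reads (95% exact Poisson interval 2.60 to 14.0, counting error only). METTL7B, which overlaps ITGA7 on the other strand, was at 0 and 2.10 FPKM in SW1736 and 1.50 and 3.33 in 8505C, and reads of the overlapping genes could not be told apart, since the strand setting is not given.

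ITGB4 (chromosome 17, 75721436 to 75757818), the β chain of α6β4, which anchors hemidesmosomes to keratin filaments, was higher in both PTX libraries. It had an FPKM of 0.286 in SW1736 wt and 3.65 in SW1736-PTX (log2 difference 3.28), and at 0.962 in 8505C wt and 15.7 in 8505C-PTX (3.90). SW1736-PTX exceeded 8505C wt by 1.82. ITGA6 was 252-fold more abundant than ITGB4 in SW1736 wt, 26.7-fold in SW1736-PTX, 205-fold in 8505C wt and 3.60-fold in 8505C-PTX.

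ITGB1, the partner of 12 α chains, did not pass the limit in either line. It had an FPKM of 347 in SW1736 wt, 285 in SW1736-PTX, 212 in 8505C wt and 223 in 8505C-PTX, with log2 differences of -0.29 and 0.07. The summed FPKM of its 12 possible α partners came to 242 for SW1736 wt, 426 in SW1736-PTX, 438 in 8505C wt and 573 in 8505C-PTX. The ratio of this sum to ITGB1 was 0.698, 1.50, 2.07 and 2.57 in the same order. SW1736 wt was the only library in which ITGB1 exceeded its partners. The laminin-binding chains ITGA3, ITGA6 and ITGA7 made up between 72.2% and 84.0% of that α chain sum in each library.

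The collagen receptors differed among themselves. ITGA1 (chromosome 5, 52788302 to 52953655), which binds type IV and other collagens, had an FPKM of 0.516 in SW1736 wt, 7.82 in SW1736-PTX, 7.59 in 8505C wt and 49.0 in 8505C-PTX. SW1736 wt was lowest and 8505C-PTX highest. The log2 differences were 3.68 in SW1736 and 2.67 in 8505C, whereas SW1736-PTX differed from 8505C wt by 0.04. PELO, named after its values were seen because it lies within the span of ITGA1 on the same strand, was at 10.5, 16.9, 17.3 and 26.8 FPKM in SW1736 wt, SW1736-PTX, 8505C wt and 8505C-PTX. ITGA11 (chromosome 15, 68301704 to 68432153), a receptor of fibrillar collagen typical of fibroblasts, had FPKM values of 7.18 and 23.7 in SW1736 wt and PTX (log2 difference 1.71) and at 1.63 and 34.2 in 8505C wt and PTX (4.31). Both PTX libraries lay above both wt libraries, and SW1736-PTX exceeded 8505C wt by 3.79. ITGA2, the other expressed collagen receptor, ranged only from 3.50 to 6.86 FPKM, with log2 differences of -0.20 and 0.95.

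ITGA1, ITGA2 and ITGA11 belong to the 9 α chains that carry an extra inserted domain, the I domain, to which collagen or cell surface ligands bind. Of the 9, 5 were compared in each line and 3 were higher in each, namely ITGA1, ITGA11 and ITGAX, where 15.7% of all compared genes in SW1736 and 15.0% in 8505C were higher. The fifth, ITGAE, the α chain of an epithelium-homing receptor of lymphocytes, was between 1.51 and 3.21 FPKM in the 4 libraries. Its partner ITGB7 never passed 0.0394 FPKM.

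Leukocyte integrin chains were higher in both PTX libraries at low levels. ITGB2, the β chain shared by the leukocyte integrins (chromosome 21, 44885954 to 44928873), had an FPKM of 0.513 in SW1736 wt, 6.11 in SW1736-PTX, 1.18 in 8505C wt and 4.92 in 8505C-PTX, with log2 differences of 3.34 and 1.97. Its antisense gene ITGB2-AS1 had a similar order, at 0.172, 1.87, 0.421 and 1.23 FPKM in the same order. Where the genes overlap, reads of ITGB2-AS1 and ITGB2 could not be told apart. ITGAX, its α partner in a receptor of myeloid cells, was listed at 0 in SW1736 wt while SW1736-PTX had an FPKM of 0.703, which is at least 53.5-fold above the floor of 3 reads. In 8505C it went from 0.0638 to 4.46 FPKM, a log2 difference of 4.80. Against 8505C wt, SW1736-PTX was higher by 2.27 for ITGB2 and by 2.29 for ITGAX. The other partners of ITGB2, namely ITGAD, ITGAL and ITGAM, were at or below 0.0127 FPKM. Of 8 leukocyte markers, 7 were at or below 0.5 FPKM in each library, with CD3E and FCGR3A at 0 and PTPRC at or below 0.02. Only CD14 was above, at 0.89 and 0.71 FPKM in SW1736 wt and PTX and 0.58 and 4.50 in 8505C wt and PTX. The summed level of the list was 1.06, 0.739, 0.689 and 4.64 FPKM in the same order, so that it was highest in 8505C-PTX. The part of such cells in the ITGB2 and ITGAX values was not tested. In RNA of a whole culture, fewer cells of a type and less RNA per cell cannot be told apart.

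ITGA4 and ITGA9 form a pair of related chains that bind VCAM1 and other ligands. ITGA4 was listed at 0 in SW1736 wt, and its FPKM of 1.15 in SW1736-PTX is at least 127-fold above the floor of 3 reads. In 8505C wt and PTX it was at 2.16 and 5.09 (log2 difference 1.20). The log2 difference of SW1736-PTX from 8505C wt was -0.86. ITGA9 had an FPKM of 0.00569 in SW1736 wt and 0.496 in SW1736-PTX, just under the limit of 0.5 for a comparison, and went in 8505C from 0 to 1.06 FPKM, a log2 difference of 3.54. ITGA9-AS1, on the other strand, was at 2.24, 0.710, 0.573 and 1.13 FPKM in SW1736 wt, SW1736-PTX, 8505C wt and 8505C-PTX. Overlapping reads of ITGA9-AS1 and ITGA9 could not be told apart.

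The receptors of the RGD sequence of fibronectin and vitronectin were the most even group of α chains. ITGA5, the fibronectin receptor chain, was at 32.3 and 30.8 FPKM in SW1736 and 41.8 and 42.2 in 8505C, with log2 differences of -0.07 and 0.01. ITGAV, which pairs with 5 β chains, ranged from 13.3 to 20.8 FPKM, with differences of -0.40 and 0.65. ITGA2B, the platelet chain, was between 0.58 and 0.69 FPKM in 3 libraries and at 0.0978 in 8505C wt, a log2 difference of 1.92 in 8505C. The megakaryocyte markers PF4 and GP9 were at 0 in all libraries, PPBP was at or below 0.07, and GP1BA was at 0.14, 1.92, 0.50 and 2.63 FPKM in SW1736 wt, SW1736-PTX, 8505C wt and 8505C-PTX.

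The β partners of ITGAV besides ITGB1 differed among themselves. ITGB3 had FPKM values of 4.84 and 6.95 in SW1736 wt and PTX (log2 difference 0.52) and at 0.609 and 5.31 in 8505C (2.93), so 8505C wt was low alone. ITGB5 was at 44.8 and 59.9 FPKM in SW1736 and 34.2 and 63.9 in 8505C, with differences of 0.42 and 0.90. ITGB8, whose pair with ITGAV activates latent TGF-β (chromosome 7, 20331102 to 20415759), was high in SW1736 wt alone. It was at 9.40 FPKM there, 0.0764 in SW1736-PTX, 0.0980 in 8505C wt and 0.886 in 8505C-PTX, giving log2 differences of -5.75 in SW1736 and 2.32 in 8505C. SW1736-PTX and 8505C wt were both below 0.5 FPKM. An unnamed locus on the other strand, LOC101927811, was also highest in SW1736 wt, at 1.31, 0, 0 and 0.452 FPKM. Overlapping reads of this locus and ITGB8 could not be told apart.

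Between the wt lines, 25 members were compared, of which 4 were higher in 8505C wt (7.73% of all genes were) and 7 lower (9.92% of all). The 4 were ITGA1, ITGA4, LAMA1 and LAMA5, with LAMA5 apart at 7.01. The 7 were ITGA2B, ITGA11, ITGB3, ITGB8, LAMA3, LAMA4 and LAMB3, from -1.84 for LAMA4 to -5.58 for ITGB8. Between the PTX lines, 29 members were compared, of which 6 were higher in 8505C-PTX (3.70% of all) and 0 lower (4.09% of all). LAMA4 differed most, by 6.00, followed by ITGA1 (2.63), ITGAX (2.50), ITGB8 (2.48), ITGB4 (2.08) and ITGA4 (2.06).

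With 8505C wt in place of SW1736 wt, 27 members were compared, of which 10 were higher in SW1736-PTX (15.1% of all genes) and 1, LAMA4, was lower (5.23% of all). This comparison shares a library with each of the others, so the values are only set side by side. ITGA2B (1.78), ITGB3 (3.32) and LAMA3 (2.53) were called here but not against SW1736 wt. ITGA1, ITGA4, LAMA1, LAMA5 and LAMB3 were among the genes called against SW1736 wt but not here, and ITGB8 was below 0.5 FPKM in both of these libraries and was not compared.

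Since a receptor needs both chains, the less abundant chain of each of the 24 known integrin pairs was read as its limit at the RNA level. A chain shared by several pairs or trimers, such as ITGB1, ITGAV or LAMC1, was counted in full for each. The levels are therefore upper limits, and the counts below use the same chain many times. The number of pairs with both chains above 0.5 FPKM came to 11 for SW1736 wt, 14 in SW1736-PTX, 11 in 8505C wt and 16 in 8505C-PTX, and above 5 FPKM it was 8, 8, 6 and 11. The α3β1 pair was limited by ITGA3 in 3 libraries and by ITGB1 in 8505C-PTX, and its limiting level in SW1736 was 105.8 FPKM in wt and 244.5 in PTX, and in 8505C 171.1 and 222.8. For α6β4 the limiting chain was ITGB4 in all libraries, and for αvβ8 it was ITGB8.

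The same reading of 14 laminin trimers counted those with all chains above 0.5 FPKM, which came to 5 for SW1736 wt, 8 for SW1736-PTX, 9 for 8505C wt and 11 for 8505C-PTX. Laminin-511 was limited by LAMA5 at 0.430 FPKM in SW1736 wt, by LAMC1 at 90.3 in SW1736-PTX, by LAMB1 at 64.8 in 8505C wt and by LAMC1 at 90.1 in 8505C-PTX. Laminin-411 was limited by LAMA4 throughout, at 32.9, 0.387, 9.13 and 31.0 FPKM in the same order.

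Set beside their receptors, the laminin-511 chains and α3β1 were both at or above 64.8 FPKM in SW1736-PTX, 8505C wt and 8505C-PTX, whereas in SW1736 wt the receptor chains were at 105.8 FPKM or more and LAMA5 was at 0.430. These are RNA levels, and the assembly of the chains was not measured.

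**Figure D4:**
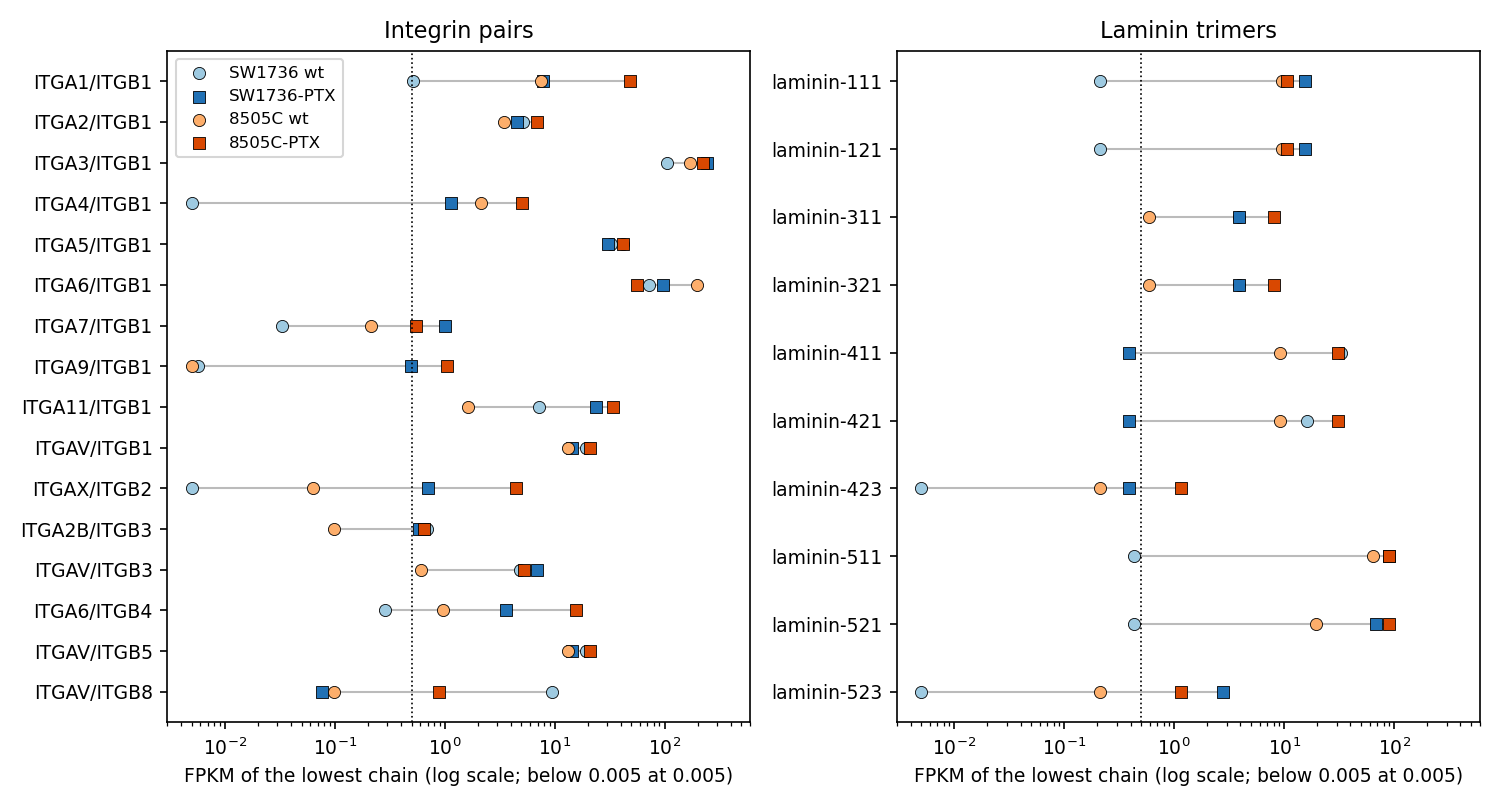
FPKM (log scale) of the least abundant chain of integrin pairs (left) and laminin trimers (right) that passed 0.5 FPKM (dotted line) in at least 1 library, with 1 point per library and values below 0.005 drawn at 0.005. Laminin-511 and laminin-521 were at 0.430 FPKM in SW1736 wt and at 19.6 or more elsewhere, and α6β4 (ITGA6/ITGB4) was higher in each PTX library than in either wt library.

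Among other genes of the basement membrane, 5 of 11 compared were higher and 2 lower in SW1736-PTX, and 7 of 13 were higher and 0 lower in 8505C-PTX. Over all compared genes, 15.7% were higher and 10.2% lower in SW1736-PTX, and 15.0% and 5.89% in 8505C-PTX. NID1 and NID2, the nidogens that bridge laminin and type IV collagen, were higher in both. NID1 was at 6.54 and 49.1 FPKM in SW1736 and 16.9 and 54.6 in 8505C, and NID2 at 4.70 and 20.3 and at 5.87 and 61.7. HSPG2, the perlecan gene, was lower in SW1736-PTX (7.57 to 2.04 FPKM, log2 difference -1.84) and higher in 8505C-PTX (5.59 to 32.8, 2.53), the same pair of directions as LAMA4. COL7A1 had these directions too, from 11.2 to 1.61 FPKM (-2.73) and from 0.0972 to 1.74 (3.22). COL4A3, COL4A4 and COL18A1 were called in 8505C only, where they were higher in PTX. COL4A5 and COL4A6 were at 0.0247 and 0 FPKM in SW1736 wt and between 6.56 and 13.9 in the other libraries, and NTN4, a netrin that binds laminin, had an FPKM of 1.67 in SW1736 wt and between 40.5 and 156.8 in the others.

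Of the 3 laminin receptors that are not integrins, BCAM, which binds the laminin α5 chain, was higher in 8505C-PTX, from 8.84 to 112.5 FPKM (log2 difference 3.65), and was at 23.1 and 33.4 in SW1736. DAG1, the dystroglycan gene, was between 36.0 and 58.9 FPKM and stayed within the limit in both lines. Of the 4 hemidesmosome partners of α6β4, none was higher in either line, while 15.7% of all compared genes in SW1736 and 15.0% in 8505C were. With only 4 genes, this count is near those shares. PLEC, which links ITGB4 to keratin filaments, was between 85.5 and 149.5 FPKM, and CD151, a tetraspanin that binds α3β1 and α6β4, between 247.9 and 364.7. COL17A1, 1 of the 4, was lower in 8505C-PTX, from 1.41 to 0.07 FPKM (-3.19), as were 5.89% of all compared genes. ITGB4 was higher there.

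Among 29 integrin adaptors, activators and kinases, 26 were compared in each line, with 4 higher and 3 lower in SW1736-PTX and 4 higher and 1 lower in 8505C-PTX. The share that was higher, 15.4% in each line, was near that of all compared genes (15.7% and 15.0%). The median log2 difference was -0.35 in SW1736 and -0.26 in 8505C, below zero, unlike that of the integrins. ZYX, the zyxin gene of focal adhesions, was lower in both, from 159.6 to 37.0 FPKM (-2.11) and from 117.1 to 38.5 (-1.60). TNS2, a tensin that links integrin tails to actin, was higher in both, from 1.38 to 24.8 FPKM (4.07) and from 8.23 to 28.4 (1.78). The talin gene TLN1, the kinase gene ILK and the paxillin gene PXN stayed within the limit, with PXN at -0.27 in SW1736 and -0.41 in 8505C. FYN and PARVB were at 0.44 and 0 FPKM in SW1736 wt and between 4.25 and 46.9 in the other libraries.

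Of 24 genes of other integrin ligands, 16 were compared in SW1736, with 4 higher and 3 lower, and 18 in 8505C, with 9 higher and 3 lower. That is 25.0% higher and 18.8% lower in SW1736 (15.7% and 10.2% of all genes), and 50.0% and 16.7% in 8505C (15.0% and 5.89%). FN1, the fibronectin gene, had an FPKM of 1133 in SW1736 wt, 103.5 in SW1736-PTX, 91.7 in 8505C wt and 270.4 in 8505C-PTX, so it was lower in SW1736-PTX (-3.45) and higher in 8505C-PTX (1.56). COL1A1 was likewise lower in SW1736-PTX, from 153.4 to 2.19 FPKM (-6.07), and higher in 8505C-PTX (1.94), where its level was low in both libraries. COL3A1, a fibrillar collagen, was higher in both, from 0.13 to 99.8 FPKM and from 1.17 to 58.1, as was the receptor chain ITGA11. LTBP1 and FGG were also higher in both lines.

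**Figure D5:**
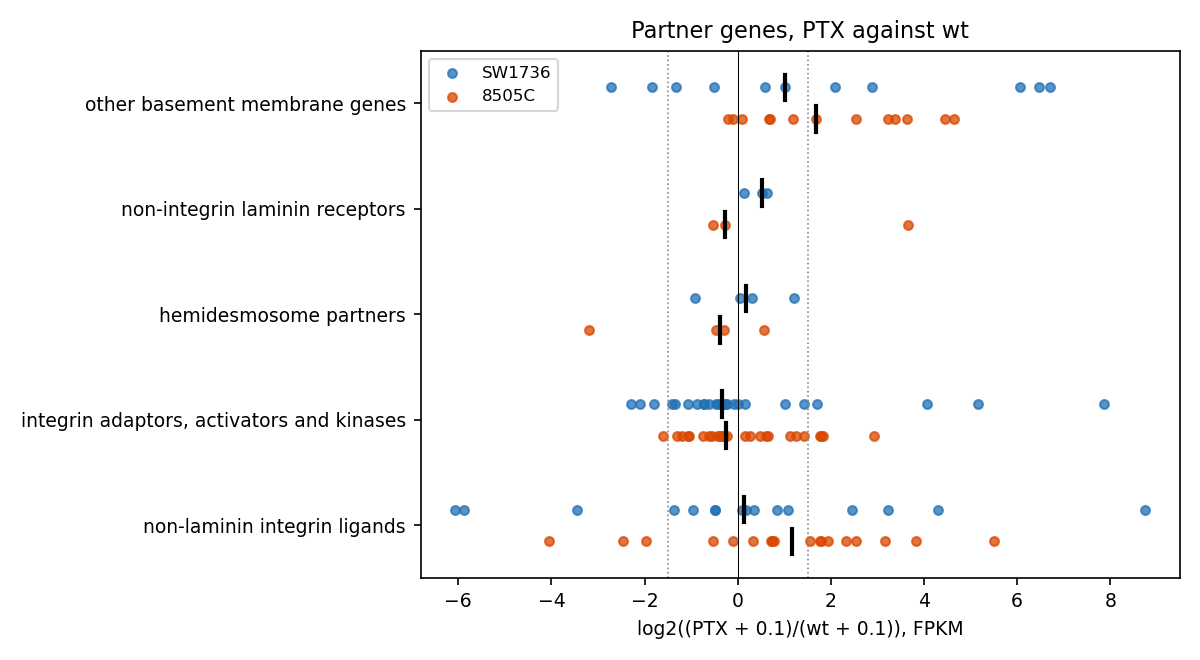
Log2 difference between PTX and wt for the compared genes of 5 lists of integrin and laminin partners, with 1 point per gene, SW1736 above 8505C in each row, black bars at the medians and dotted lines at 1.5 and -1.5. The basement membrane list had medians of 1.02 in SW1736 and 1.69 in 8505C, and the adaptor list -0.35 and -0.26.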

How the data were processed

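One mRNA library (Universal Plus mRNA-Seq) was made for each of SW1736 wt, SW1736-PTX, 8505C wt and 8505C-PTX. The authors masked adapters (Cutadapt), trimmed bases (ERNE), aligned with STAR (hg38) and used StringTie to quantify loci. Annotation and strand setting are not given in the sources used here, so reads of genes that overlap on opposite strands could not be told apart. The coverage column deposited by the authors is the mean read coverage per base. The FPKM column, also deposited, is StringTie's value scaled for gene length and depth. The TPM column deposited by the authors is scaled to an equal total per library. No read counts were used.

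Rows sharing a gene name were added up. Differences used a pseudocount of 0.1 FPKM on the log2 scale, an FPKM minimum of 0.5 and a log2 limit of 1.5. The sums, shares and ratios of chains were formed after values were seen. Reads behind a value were approximated as FPKM times the MANE transcript length (GENCODE 44) times the depth. The calling step was tested on simulated data, in which 200 of 11653 genes expressed in SW1736 wt were changed well beyond the limit. All 200 were recovered, which such large changes made nearly certain. The simulation held counting error only, so it does not cover members near 0 FPKM in wt or the spread between cultures. Members and lists were chosen with earlier results of these data known, and lists were not tested. Any member could be named, as could, by rule, partner genes that were called or above 50 FPKM in any library, opposite-strand genes overlapping a called member, and marker genes. The promoter sequences came from RefSeq (GRCh38.p14). In 2 cases (CCN1 and CCN2) the older symbol was used. The values of 1 laminin gene, of the trimer that needs it and of some marker genes are not reported here, though counts and medians over lists include them. Alternatives changed the pseudocount, the FPKM minimum, the unit, centring, repeated rows, the threshold and the comparator. Python 3.11.15, NumPy 2.4.6, pandas 2.3.3, SciPy 1.17.1 and matplotlib 3.10.9 were used.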

Additional observations from a re-analysis of the deposited data

Results flagged for a closer look

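Of the members, 2 were called in opposite directions in the lines, and the difference was not tested, since each condition has 1 library. ITGB8 had log2 differences of -5.75 in SW1736 and 2.32 in 8505C, which are 8.07 apart. LAMA4 had log2 differences of -6.08 in SW1736 and 1.75 in 8505C, which are 7.84 apart. With 8505C wt as the comparator of SW1736-PTX, LAMA4 was at -4.24, and ITGB8 was below 0.5 FPKM in both libraries and was not compared. The opposite calls were lost for ITGB8 with a pseudocount of 1, where 8505C gave 0.78, and for both genes with more than 0.5 FPKM required in both libraries, since SW1736-PTX was below that for each.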

How the results depend on the processing

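A paired fit across both lines would take the lines as replicates of one another and was not run. With a pseudocount of 1, 4 integrin genes in place of 7 were higher in SW1736-PTX, 5 in place of 9 in 8505C-PTX, and 4 members in place of 7 in both. With more than 0.5 FPKM required in both libraries, 3 integrin genes were higher and 0 in place of 1 lower in SW1736-PTX, 1 laminin gene in place of 4 was higher there, the median log2 difference of the laminins was 0.40 in place of 1.04, 5 integrin genes were higher in 8505C-PTX and 4 members in both. In 8505C-PTX, 3 laminin genes in place of 4 were higher with this filter. This setting removes genes at or near 0 in wt by construction. With 8505C wt as the comparator of SW1736-PTX, 0 integrin genes and 1 laminin gene in place of 3 were lower, and ITGA4 (-0.86) and LAMB3 (0.41) changed direction; the cause was not tested. With a log2 limit of 1, 1 laminin gene was lower in 8505C-PTX in place of 0, and 12 members were higher in both. Shares of all genes were not computed under the other pseudocounts, filters and limit. The member counts at those settings therefore show no gain or loss relative to all genes. Of 384 values of single members under the alternatives other than the comparator, 376 stayed on the same side of the limit, and 8, all with a pseudocount of 1, no longer passed it. The 57 values with no FPKM minimum and the 42 with 0.5 FPKM required in both libraries could not move, as only the filter changed. Members that the second of these settings dropped, LAMA5 and LAMA4 in SW1736 among them, are not in the 384. In 6 of the 376, all below 0.1 in size and not called, the sign changed. A pseudocount of 0.01, no FPKM minimum, TPM, centring and the highest row in place of the sum moved no count by over 1.5 times. With 1 library per condition, spread between cultures is unknown, and members near 0 in a library rest on few reads.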
